A study of Rattus norvegicus with 24 samples.

Results

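Day 7 of culture was compared with day 5 in a gel culture model of the newborn rat testis. The comparison used 6 of the 24 libraries of the study, chosen by their labelled culture day, 3 from day 7 and 3 from day 5. Both groups held primary testis cells of Sprague Dawley rats, labelled WT in genotype and taken on postnatal day 5, with all cell types of the organ mixed and none enriched or depleted. In both groups the cells sat at 5 M cells/mL in 4.5 mg/mL Matrigel, a basement membrane extract, under serum-free medium of which 50% was exchanged every 24 h, and neither group received hormone. All 6 cultures came from 1 litter and were technical replicates per the design text, so p-values here measure the spread between cultures of 1 litter and not between litters. The same litter also gave 3 libraries at day 3 and 3 of the fresh isolate, and a separate hormone experiment gave the rest. The question was how messenger RNA differed between these late and middle times of the untreated culture. In such bulk libraries, fewer cells of a type and less RNA per cell cannot be told apart.

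The newborn testis is built of cords in which Sertoli cells surround the germ cells, with contractile peritubular myoid cells around each cord and androgen-making Leydig cells, stroma, vessels and macrophages between them. Sertoli and stromal cells still divide after birth. Cells in a gel also lay down matrix of their own: fibrillar collagens are folded by a chaperone, trimmed by proteases and crosslinked by lysyl oxidases, and elastin is assembled on microfibrils.

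The 6 libraries held 17.3 to 24.8 M reads, as recovered from the deposited values, which are counts scaled to the library total (CPM). Day 5 replicate 3 stood apart. On the first principal component of the 9 culture libraries, which carried 36.2% of the variance, it lay at 43.1 and the others between -24.0 and 8.46. In day 5 replicate 3, 493 genes lay at least 2-fold from the mean of the other day 5 libraries, 400 of them lower, against 68 and 212 genes for day 5 replicates 1 and 2 and 78 to 131 for the day 7 libraries. It also had the fewest genes above 0, at 14365, with 15012 and 15214 in the other day 5 libraries. Results are therefore given with it and without it. Sertoli cell markers (Clu, Gata4, Sox9, Amh) and myoid markers (Acta2, Tagln) were abundant in all 6 libraries. The macrophage marker Cd163, the erythroid Hbb and the germ cell gene Stra8 were at 0 in all 6, and the 14 macrophage markers summed to 28.6 to 40.5 CPM at day 7 and 35.7 to 53.6 CPM at day 5.

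Few genes could be called between the days. Of 12335 genes with at least 1 CPM in at least 3 of the 6 libraries, 1 passed an adjusted p of 0.05 (0.00811%) in limma on log2(CPM + 1), fitted with the 9 libraries of days 3, 5 and 7. That gene was Nfs1, the cysteine desulfurase of iron-sulfur cluster assembly. At an unadjusted p under 0.05 there were 1281 genes (10.4%), 520 higher at day 7 (4.22%) and 761 lower at day 7 (6.17%). The 3 day 7 and 3 day 5 libraries did not overlap for 712 genes that were higher at day 7 (5.77%) and 1237 that were lower (10%). Without day 5 replicate 3, 1 gene passed (Nfs1 again), and 429 (3.48%) and 553 (4.48%) genes had an unadjusted p under 0.05 on the higher and lower sides. The number in both directions together was 808 without day 7 replicate 1, 831 without day 7 replicate 3 and 2359 without day 5 replicate 2. On the recovered reads, edgeR called 1 gene (0.00811%), while DESeq2 called 90 higher (0.73%) and 38 lower (0.308%). The 95% interval of a gene's log2 fold change had a median reach of 0.36 to either side, or 1.29-fold. It was not adjusted for the number of genes. Smaller differences were mostly not detectable, and larger ones could also fail the adjusted test. Only 42 genes differed by 2-fold or more, 31 higher and 11 lower at day 7, and of these only Nfs1 passed. The values below are thus differences with their errors, in which no gene but Nfs1 passed limma's adjusted test; the next smallest adjusted p was 0.199. CPM are given for replicates 1, 2 and 3 in turn, and the error beside each log2 fold change of day 7 over day 5 is its standard error. Members singled out for the size of their difference were chosen after their values were seen, while the most abundant members were named by rule.

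Nfs1 had 0.287, 0.173 and 0.101 CPM in the day 7 libraries, against 4.52, 5.65 and 5.40 CPM in the day 5 libraries. Its level fell at day 7, with a log2 difference of -2.38 ± 0.20 (limma adjusted p = 0.00117), and of -2.35 without day 5 replicate 3. It was -3.65 with a pseudocount of 0.25 and -4.75 in edgeR on the recovered reads. The groups lay far apart and did not overlap. At day 3 it stood at 0.0755, 0.221 and 0.0529 CPM, near day 7. In the fresh isolate the replicates of 1 group differed among themselves, at 4.87, 0.229 and 0.230 CPM, and in the 12 libraries of the hormone experiment it had 29.2 to 41.6 CPM. Its RefSeq neighbour Romo1, a small mitochondrial protein gene chosen for its position, was at most 0.0529 CPM in the 12 libraries of this litter and 47.2 to 55.7 CPM in the hormone experiment. Whether reads were assigned to these genes in the same way in all libraries was not tested, so the difference in Nfs1 is one of deposited counts and may not be one of expression. With the spread of the fresh isolate included in the fit, Nfs1 did not pass (limma adjusted p = 0.0671 over 12 libraries), while 9 other genes did (0.073%).

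Genes of cell division were lower at day 7. All 29 mitosis genes tested had a negative log2 fold change, with a median of -0.46 against -0.03 over all genes, and -0.49 without day 5 replicate 3. Of these, 24 had an unadjusted p under 0.05 on the lower side (6.17% of all genes did) and 0 on the higher. In 19 the 3 day 7 and 3 day 5 libraries did not overlap (10% of all genes on the lower side), and DESeq2 called 11 (0.308% of all genes). Without day 5 replicate 3, 24 had an unadjusted p under 0.05 on that side (4.48% of all genes) and 25 did not overlap (15.6%). Without day 7 replicate 3, 15 had an unadjusted p under 0.05 on that side. Their summed level was 1392 to 1782 CPM in the day 7 libraries and 2075 to 2258 CPM in the day 5 libraries.

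Ect2, which triggers the contractile ring of dividing cells, had 41.1, 47.4 and 44.0 CPM in the day 7 libraries, against 70.7, 61.0 and 81.7 CPM in the day 5 libraries (-0.67 ± 0.12, limma adjusted p = 0.205). Kif11, the motor that pushes spindle poles apart, had 42.6, 66.2 and 48.9 CPM at day 7, against 89.6, 81.2 and 93.8 CPM at day 5 (-0.76 ± 0.16, limma adjusted p = 0.220). Top2a, the topoisomerase that untangles chromosomes and the most abundant of the list, had 175, 206 and 163 CPM at day 7, against 299, 261 and 312 CPM at day 5 (-0.68 ± 0.16, limma adjusted p = 0.233). In these 3 genes every day 7 library lay below every day 5 library. Among further members, the spindle checkpoint kinases Ttk and Bub1 had -0.65 ± 0.13 and -0.62 ± 0.14, and the midzone proteins Kif23 and Prc1 -0.53 ± 0.11 and -0.45 ± 0.11. Cdk1 and Ccnb1, the kinase and cyclin that start mitosis, had -0.46 ± 0.11 and -0.47 ± 0.13, and Tpx2, a spindle assembly factor second in abundance, -0.28 ± 0.11. Mki67, the proliferation marker, overlapped, with 121.9, 157 and 113 CPM at day 7, against 199.7, 164 and 142 CPM at day 5 (-0.37 ± 0.25). Arhgap19, a GTPase regulator outside the list, came after Nfs1 and Gstm5 in p among the lower genes, with 17.8, 23.8 and 20.6 CPM at day 7, against 34.9, 35.5 and 43.0 CPM at day 5 (-0.84 ± 0.14, limma adjusted p = 0.199).

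Replication genes lay lower by less. Of 30 DNA replication genes, 12 had an unadjusted p under 0.05 on the lower side and 0 on the higher (background 6.17% and 4.22%). On the lower side 16 did not overlap (10% of all genes), and DESeq2 called 1 (0.308% of all genes). The median log2 fold change was -0.29, or -0.24 without day 5 replicate 3. Without that library 7 had an unadjusted p under 0.05, and without day 7 replicate 3, 5 did. Mcm10, which helps fire replication origins, had 15.9, 21.7 and 14.0 CPM at day 7, against 27.5, 29.2 and 38.2 CPM at day 5 (-0.85 ± 0.18, limma adjusted p = 0.220). The ribonucleotide reductase subunit Rrm2 had -0.45 ± 0.12 and the helicase subunit Mcm6 -0.42 ± 0.11. The sliding clamp Pcna and the helicase subunit Mcm7, the most abundant members, had -0.30 ± 0.11 and -0.23 ± 0.13, and Mcm2 -0.23 ± 0.10. Cdkn1a, the p53-responsive inhibitor of cell cycle kinases, had 99.1, 65.7 and 83.8 CPM at day 7, against 47.2, 72.6 and 33.5 CPM at day 5 (0.74 ± 0.27), and the groups overlapped. Its difference was 0.47 without day 5 replicate 3. It was the largest of 16 cell cycle inhibitors and p53 targets tested, of which 12 had a positive and 4 a negative difference. Of the 16, 3 had an unadjusted p under 0.05 on the higher side and 0 on the lower. Without overlap, 2 lay higher (5.77% of all genes) and 2 lower (10%). The median of that list was 0.18, or 0.24 without day 5 replicate 3.

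**Figure D1:**
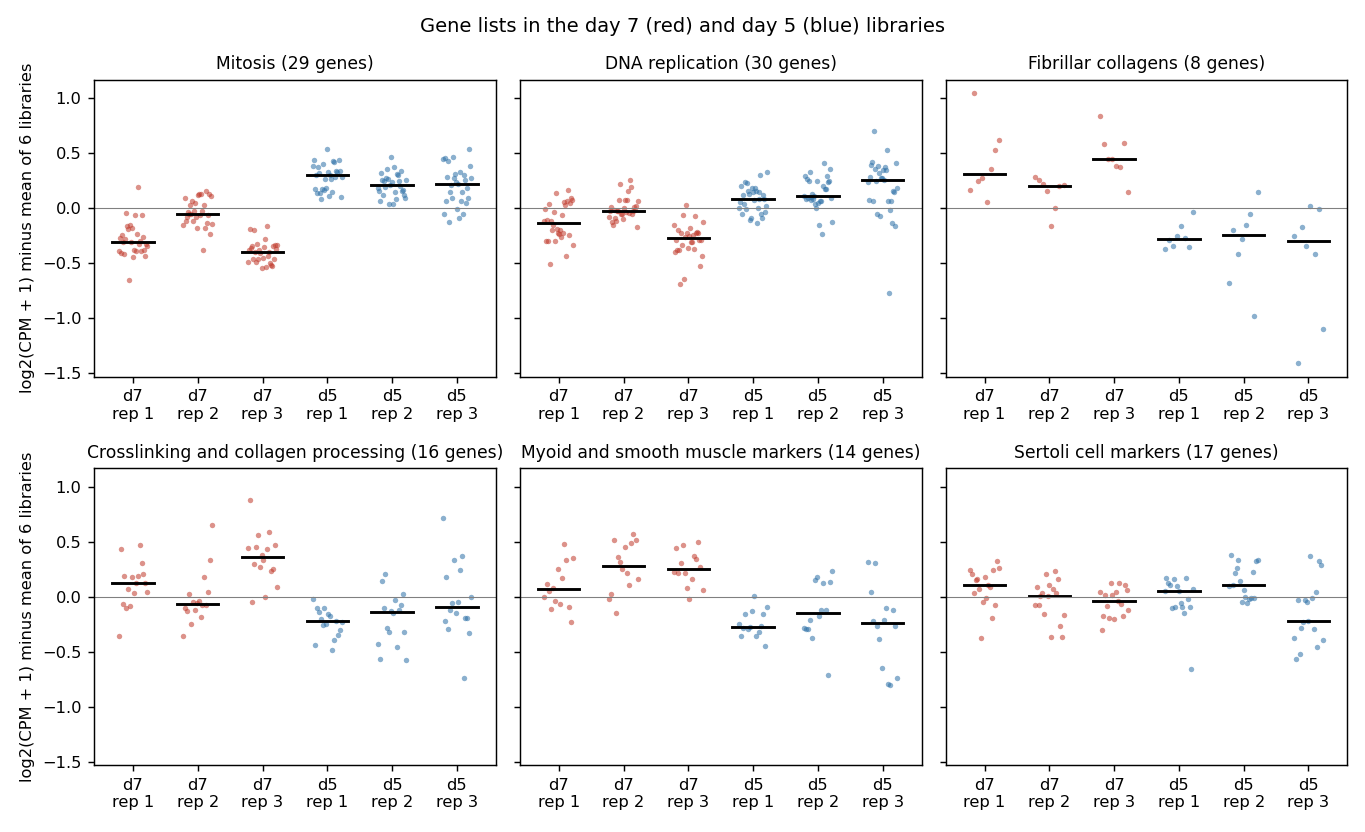
Each point is 1 gene of the named list in 1 library, as log2(CPM + 1) minus that gene's mean over the 6 libraries, with day 7 libraries in red and day 5 libraries in blue and a black bar at the median of the list. The mitosis median lay lower in each day 7 library and that of the fibrillar collagens higher, while the median of the Sertoli cell markers differed by 0.00 between the days.

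The mitosis promoters shared short sequences. Promoters of such genes are known from human and mouse cells to carry a CCAAT box, bound by NF-Y, and a cell cycle homology region (CHR) bound by the MuvB complexes. The CHR was searched as the word TTTGAA, as the word TTTAAA and also as the word TTCGAA. RefSeq promoters of build GRCr8 were matched for 25 of the 29 mitosis genes and searched over the 250 bases before the start, on both strands; matches of different words may overlap and were counted separately, and the last pair of words read the same on both strands. A CHR word was found in 22 of the 25 (88.0%), against 26.4% of all 27457 promoters and 18.1% of those of the genes tested. CCAAT was found in 18 (72.0%), against 34.3% and 35.7%, and both in 17 (68.0%), against 9.30% and 6.76%. In 24 matched DNA replication promoters CCAAT was found in 15 (62.5%) and a CHR word in 5 (20.8%), and the E2F-type word TTCCCGC in 6 (25%), against 3.58% of all promoters and 6.85% of those of the genes tested. These are matches of letters and no measure of binding. The sequences of Ect2 (chr2:111966627-111966876, minus strand), Kif23 (chr8:71320585-71320834, minus strand), Kif11 (chr1:244536617-244536866, plus strand) and Top2a (chr10:84473094-84473343, minus strand) are shown because they hold both words, and that of Mcm10 (chr17:78175137-78175386, plus strand), a replication gene, because it holds CCAAT with no CHR word in this window. They run 5′ to 3′ in the direction of the gene and end at the base before the start, with capitals at CCAAT and the CHR words of either strand.
Ect2: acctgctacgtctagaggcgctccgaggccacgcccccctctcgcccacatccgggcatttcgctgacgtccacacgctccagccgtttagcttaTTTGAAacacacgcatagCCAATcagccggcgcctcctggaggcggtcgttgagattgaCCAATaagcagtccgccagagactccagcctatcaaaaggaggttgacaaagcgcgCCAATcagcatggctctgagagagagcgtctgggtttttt
Kif23: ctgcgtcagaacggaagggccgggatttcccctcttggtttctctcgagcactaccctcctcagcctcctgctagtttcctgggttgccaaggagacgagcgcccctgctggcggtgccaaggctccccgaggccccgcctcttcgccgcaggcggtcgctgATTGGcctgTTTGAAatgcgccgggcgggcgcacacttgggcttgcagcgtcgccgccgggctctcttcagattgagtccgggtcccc
Kif11: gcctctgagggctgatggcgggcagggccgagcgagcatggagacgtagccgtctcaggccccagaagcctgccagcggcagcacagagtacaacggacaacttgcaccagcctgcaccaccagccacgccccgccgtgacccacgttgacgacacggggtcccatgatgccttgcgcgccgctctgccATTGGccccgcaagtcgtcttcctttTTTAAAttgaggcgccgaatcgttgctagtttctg
Top2a: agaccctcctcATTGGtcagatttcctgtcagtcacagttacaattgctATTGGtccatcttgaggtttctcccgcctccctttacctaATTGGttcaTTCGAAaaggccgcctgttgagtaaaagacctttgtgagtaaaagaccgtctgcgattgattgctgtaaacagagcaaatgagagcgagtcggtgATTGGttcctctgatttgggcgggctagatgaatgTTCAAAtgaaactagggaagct
Mcm10: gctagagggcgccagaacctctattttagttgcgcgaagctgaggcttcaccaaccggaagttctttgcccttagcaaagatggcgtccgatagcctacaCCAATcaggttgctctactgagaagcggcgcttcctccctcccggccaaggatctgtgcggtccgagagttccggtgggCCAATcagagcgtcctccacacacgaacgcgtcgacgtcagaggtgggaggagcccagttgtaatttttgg

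Collagen messenger RNA took a larger share of the library at day 7. The 44 collagen genes listed in the file summed to 3.00, 2.76 and 3.42% of the library in the day 7 libraries, against 2.02, 2.01 and 2.02% in the day 5 libraries. The lowest day 7 library lay above the highest day 5 library. The spread was much wider at day 7, with an SD of 0.33 against 0.0051 at day 5. An exact permutation test, two-sided, gave p = 0.1, the smallest p that 3 against 3 libraries allow, so it could not pass 0.05. At day 3 the share was 1.81, 1.82 and 1.95%, and in the fresh isolate 1.07 to 1.22%. Of 8 fibrillar collagens tested, 6 had an unadjusted p under 0.05 on the higher side (4.22% of all genes did), 7 did not overlap (5.77%) and DESeq2 called 5 (0.73%), with a median log2 fold change of 0.63, or 0.62 without day 5 replicate 3. Without that library 5 had an unadjusted p under 0.05, and 1139 of all genes (9.23%) lay higher without overlap.

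Col1a1, a chain of type I collagen and the most abundant of them, had 6792, 7389 and 10851 CPM at day 7, against 4673, 3779 and 5092 CPM at day 5 (0.87 ± 0.20, limma adjusted p = 0.232). Col1a2, its partner chain, had 2471, 1432 and 1791 CPM at day 7, against 982, 1042 and 450.1 CPM at day 5 (1.26 ± 0.31). Day 5 replicate 3 was the low one for Col1a2, and the difference was 0.87 without it. Col3a1 (type III) had 5179.5, 5072 and 5915 CPM at day 7, against 3419.8, 3268 and 3876 CPM at day 5 (0.61 ± 0.14, limma adjusted p = 0.227). Col5a1, the type V chain that starts collagen fibrils, had the smallest p of the list, with 1102, 1019 and 1244 CPM at day 7, against 765, 749 and 718 CPM at day 5 (0.59 ± 0.11, limma adjusted p = 0.201). Col11a1 had 0.89 ± 0.21, and Col5a2 overlapped between the days (0.19 ± 0.14). In the basement membrane list of 22 genes, 6 had an unadjusted p under 0.05 on the higher side (4.22% of all genes did). The 6 were all type IV collagen chains. Without day 5 replicate 3 there were 4 (3.48% of all genes), and the median of the list was 0.15 with that library and 0.05 without it. They included Col4a1 with 0.46 ± 0.15 (0.35 without day 5 replicate 3), Col4a2 with 0.45 ± 0.17 and Col4a6 with 0.75 ± 0.17. The abundant linker Nid1 had -0.13 ± 0.16. Of 10 other collagens, 5 had an unadjusted p under 0.05 on the higher side (4.22% of all genes) and 1 on the lower (6.17%). Without day 5 replicate 3 the counts were 5 (3.48% of all genes) and 2 (4.48%). Among the higher ones Col8a2 had 0.98 ± 0.21 and Col16a1 0.77 ± 0.22.

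Elastin and its microfibril partner stood out among the other matrix genes. Eln, the elastic fibre protein, had 1343, 1281 and 2136 CPM at day 7, against 477, 369 and 651 CPM at day 5 (1.67 ± 0.33, limma adjusted p = 0.205, DESeq2 adjusted p = 0.0177). Its lowest day 7 library lay well above its highest day 5 library, and the difference was 1.88 without day 5 replicate 3. Mfap2, a microfibril protein, had 107, 128 and 144 CPM at day 7, against 67.5, 61.3 and 63.9 CPM at day 5 (0.96 ± 0.16, limma adjusted p = 0.199). Adamtsl2, which binds fibrillin microfibrils, had 34.6, 47.1 and 66.9 CPM at day 7, against 9.04, 4.80 and 26.5 CPM at day 5 (2.06 ± 0.59). Of 27 matrix glycoproteins and proteoglycans, 4 had an unadjusted p under 0.05 on the higher side and 2 on the lower. Over all genes these shares were 4.22% and 6.17%. Without overlap, 5 lay higher (5.77% of all genes). The median of the list was -0.01, or 0.12 without day 5 replicate 3, when 9 lay higher without overlap (9.23% of all genes). The most abundant, the proteoglycan Bgn and the collagen-binding protein Sparc, had 0.31 ± 0.17 and 0.37 ± 0.14. Fibronectin (Fn1) overlapped, with 1145, 1118 and 1937 CPM at day 7, against 1451, 1171 and 1771 CPM at day 5 (-0.09 ± 0.28, 95% interval -0.71 to 0.52). Postn, a matrix protein of wound stroma, had 138, 128 and 371 CPM at day 7, against 119.7, 81.3 and 342 CPM at day 5 (0.32 ± 0.51). Replicate 3 was the highest of its group on both days for Postn, Fn1, Eln and Col1a1. The small proteoglycans Lum and Aspn were the 2 lower members, at -0.55 ± 0.19 and -1.53 ± 0.63, and both overlapped.

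Most genes that process and crosslink collagen lay higher, and 3, Lox among them, had a negative difference. Of 16 tested, 8 had an unadjusted p under 0.05 on the higher side (4.22% of all genes) and 0 on the lower, 9 lay higher without overlap (5.77%), and the median was 0.34, or 0.32 without day 5 replicate 3. That count was 4 without day 7 replicate 3 and 5 without either day 5 replicate 1 or day 7 replicate 1. Serpinh1, the collagen chaperone of the endoplasmic reticulum and the most abundant, had 1462, 1197 and 1588 CPM at day 7, against 805, 972 and 634 CPM at day 5 (0.83 ± 0.20, limma adjusted p = 0.239). Adamts2, which trims the amino end of procollagen, had 237, 274 and 301 CPM at day 7, against 176, 174 and 173 CPM at day 5 (0.63 ± 0.10, limma adjusted p = 0.199). Loxl1, a lysyl oxidase that acts on elastin, had 562, 387 and 765 CPM at day 7, against 306, 281 and 357 CPM at day 5 (0.81 ± 0.25). Lox itself had 378, 379 and 658 CPM at day 7, against 477, 358 and 795 CPM at day 5 (-0.18 ± 0.27), and the groups overlapped. The hydroxylase Plod1 and the transglutaminase Tgm2 had 0.39 ± 0.15 and 0.53 ± 0.21, and Pcolce, which speeds the trimming of procollagen, 0.31 ± 0.14. Among 18 proteases and inhibitors 3 had an unadjusted p under 0.05 on the higher side and 2 on the lower. Over all genes these shares were 4.22% and 6.17%. Mmp2, a gelatinase, had 580.0, 653 and 629 CPM at day 7, against 403, 401 and 390.2 CPM at day 5 (0.64 ± 0.10, limma adjusted p = 0.199). Its day 5 libraries differed by far less than the gap between the days. The protease inhibitors Serpine2 and Timp3 had 1.09 ± 0.25 and 0.54 ± 0.14.

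**Figure D2:**
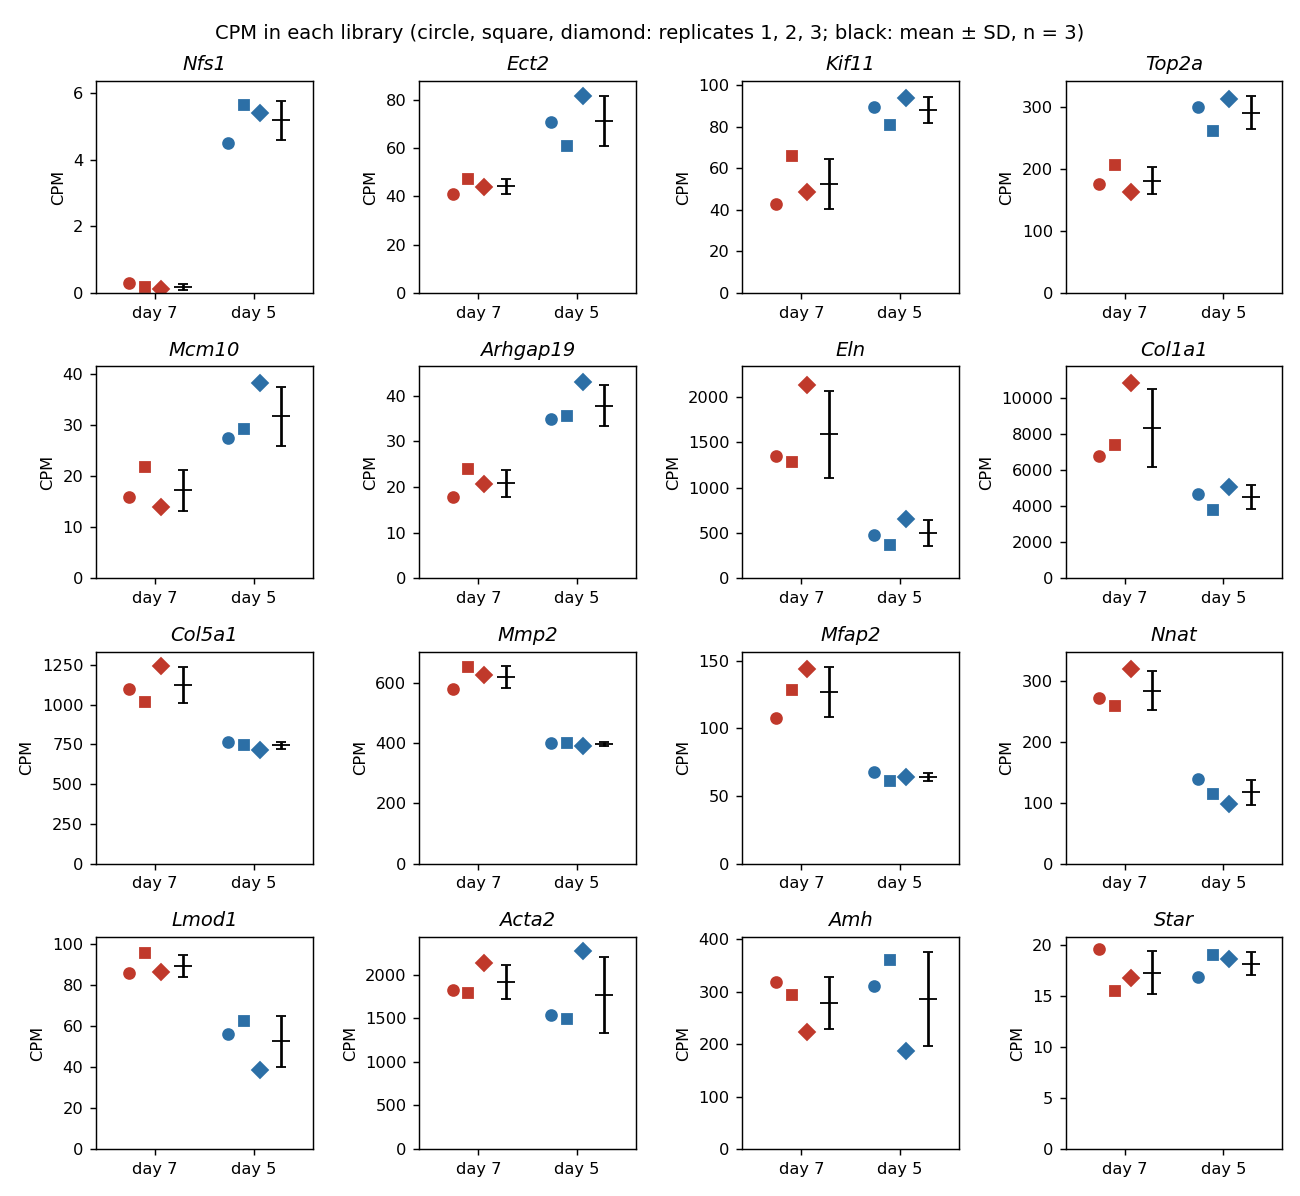
CPM of 16 genes in each day 7 library (red) and day 5 library (blue), with the mean ± SD of 3 libraries in black and every axis starting at 0. The division genes and Nfs1 lay lower at day 7 without overlap, the matrix genes Eln, Col1a1, Col5a1, Mmp2 and Mfap2 higher without overlap, and Acta2, Amh and Star overlapped.

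Contractile genes of myoid cells were also higher at day 7. All 14 myoid and smooth muscle markers had a positive log2 fold change (median 0.39, or 0.38 without day 5 replicate 3). Of them, 8 had an unadjusted p under 0.05 on the higher side, against 4.22% of all genes. On that side 5 did not overlap (5.77% of all genes), and DESeq2 called 2 (0.73%). Without day 7 replicate 3, 5 had an unadjusted p under 0.05. Their summed level was 6669 to 7141 CPM at day 7 and 5263 to 5752 CPM at day 5. Lmod1, which nucleates actin filaments in smooth muscle, had 85.9, 95.8 and 86.7 CPM at day 7, against 56.3, 62.6 and 38.6 CPM at day 5 (0.78 ± 0.18, limma adjusted p = 0.232). The calponin Cnn1 had 119, 145 and 155 CPM at day 7, against 91.5, 86.3 and 93.3 CPM at day 5 (0.61 ± 0.15). Myh11, the smooth muscle myosin heavy chain, had 641, 881 and 717 CPM at day 7, against 508, 503 and 532 CPM at day 5 (0.52 ± 0.16). These 3 did not overlap. Myocd, the coactivator that drives smooth muscle genes, had 0.65 ± 0.27, and the tropomyosin Tpm2 and Tagln had 0.65 ± 0.23 and 0.40 ± 0.16. The smooth muscle actins had the smallest differences of the list. Acta2 had 1822, 1797 and 2140.2 CPM at day 7, against 1539.6, 1496 and 2272 CPM at day 5 (0.14 ± 0.17), and Actg2 had 0.04 ± 0.16. The myoid markers thus shifted in the same libraries as the collagens, and their part in the collagen difference was not tested. The stromal transcription factor Tcf21 had 75.0, 83.2 and 84.4 CPM at day 7, against 50.2, 54.3 and 43.1 CPM at day 5 (0.71 ± 0.14, limma adjusted p = 0.205). Of 10 stromal fibroblast markers, 3 had an unadjusted p under 0.05 on the higher side (Col1a1, Tcf21 and Igf1) and 1 on the lower (Lum). Over all genes these shares were 4.22% and 6.17%. The list had a median of 0.22, or 0.12 without day 5 replicate 3. Its 14 genes in the file summed to 7979 to 12006 CPM at day 7 and 4982 to 5998 CPM at day 5, but without Col1a1 the other 13 summed to 1187, 1453 and 1155 CPM at day 7, against 1194, 1202 and 906 CPM at day 5, and overlapped.

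With all 6 libraries, Sertoli cell genes did not differ beyond the spread between libraries. Of 17 Sertoli cell markers, 0 had an unadjusted p under 0.05 (4.22% of all genes higher, 6.17% lower). Without overlap, 1 lay higher (5.77% of all genes) and 0 lower (10%), and the median was 0.00. Without day 5 replicate 3, 1 had an unadjusted p under 0.05 on the lower side (4.48% of all genes) and 0 on the higher (3.48%). Then 2 lay higher (9.23%) and 2 lower (15.6%) without overlap, and the median was -0.04. Amh, the anti-Müllerian hormone of immature Sertoli cells, had 319, 294 and 224 CPM at day 7, against 311, 361 and 186 CPM at day 5 (0.00 ± 0.23, 95% interval -0.50 to 0.51, limma adjusted p = 0.997), or -0.28 without day 5 replicate 3. Sox9, which fixes Sertoli cell identity, had 223, 178 and 194 CPM at day 7, against 195, 201 and 145 CPM at day 5, with an interval of -0.15 to 0.45. The FSH receptor Fshr had 18.6, 28.4 and 26.8 CPM at day 7, against 22.9, 27.1 and 24.0 CPM at day 5, with an interval of -0.46 to 0.42. These intervals allow changes of up to 1.42-fold in Amh and 1.36-fold in Sox9, so equality was not shown. The chaperone Clu and the transcription factor Gata4, the most abundant markers, had -0.01 ± 0.10 and 0.12 ± 0.17. Of 12 genes of inhibin, activin, follistatin and AMH, 0 had an unadjusted p under 0.05, and the inhibin subunit Inha had 452, 430.3 and 347 CPM at day 7, against 413, 415 and 343 CPM at day 5 (0.07 ± 0.13).

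Of 11 Leydig cell genes, 1 had an unadjusted p under 0.05 on the higher side (4.22% of all genes) and 2 on the lower (6.17%). Without overlap, 4 lay lower at day 7 (10% of all genes) and 1 higher (5.77%), and the median was -0.12. Without day 5 replicate 3, 0 on the higher side and 2 on the lower had an unadjusted p under 0.05 in limma. Star, which brings cholesterol into mitochondria, had 19.6, 15.5 and 16.8 CPM at day 7, against 16.9, 18.999 and 18.6 CPM at day 5 (-0.07 ± 0.20). The side-chain cleavage enzyme Cyp11a1 had 12.2, 10.0 and 7.31 CPM at day 7, against 13.0, 11.01 and 8.20 CPM at day 5 (-0.12 ± 0.22), and Hsd17b3, which completes testosterone, had -0.17 ± 0.17. The 2 lower ones were the steroid enzyme Akr1c14 and the 5-alpha reductase Srd5a1, at -0.30 ± 0.12 and -0.44 ± 0.17, and the higher one was the electron carrier Fdx1 at 0.41 ± 0.17. The steroid regulator Nr5a1, shared with Sertoli cells, had 0.16 ± 0.17. Cyp17a1, needed for androgens, fell below the 1 CPM filter, with at most 0.824 CPM at day 7 and 0.323 CPM at day 5, and the LH receptor Lhcgr had 0.975, 4.64 and 0.254 CPM at day 7, against 0.985, 0.282 and 0.423 CPM at day 5.

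The germ cell, macrophage, endothelial, pericyte and mesothelial lists had medians of -0.14 to 0.08, and of the erythroid list 1 gene was tested, at -0.35 (-0.03 without day 5 replicate 3). Germ cell markers, low in culture, summed to 217 to 244 CPM at day 7 and 222 to 258 CPM at day 5, with a median difference of -0.03 over the 15 tested. Of those 15, 6 had a positive log2 fold change and 9 a negative one. At an unadjusted p under 0.05 there was 1, on the higher side (4.22% of all genes), and 0 without day 5 replicate 3. The germ line helicase Ddx4 had 1.43, 1.39 and 2.59 CPM at day 7, against 3.30, 2.34 and 1.90 CPM at day 5, and Dazl had -0.40 ± 0.43. Of 7 macrophage markers tested, the mannose receptor Mrc1 had the only unadjusted p under 0.05, with 13.9, 13.3 and 13.4 CPM at day 7, against 20.4, 16.6 and 21.2 CPM at day 5 (-0.48 ± 0.16), and the receptor Csf1r had -0.41 ± 0.28. Among 7 endothelial markers the TGF-beta coreceptor Eng had 382, 335 and 595 CPM at day 7, against 269.8, 272 and 258 CPM at day 5 (0.67 ± 0.18). Stromal cells also carry Eng. The 12 endothelial markers summed to 458 to 717 CPM at day 7 and 398 to 434 CPM at day 5, but without Eng the other 11 summed to 129.3, 123.1 and 122.8 CPM at day 7, against 143, 162 and 140.0 CPM at day 5, lower in every day 7 library. The endothelial cadherin Cdh5 lay the other way, at -0.28 ± 0.24. Of 7 mesothelial markers, 0 had an unadjusted p under 0.05, with the keratin Krt8 at -0.14 ± 0.17.

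**Figure D3:**
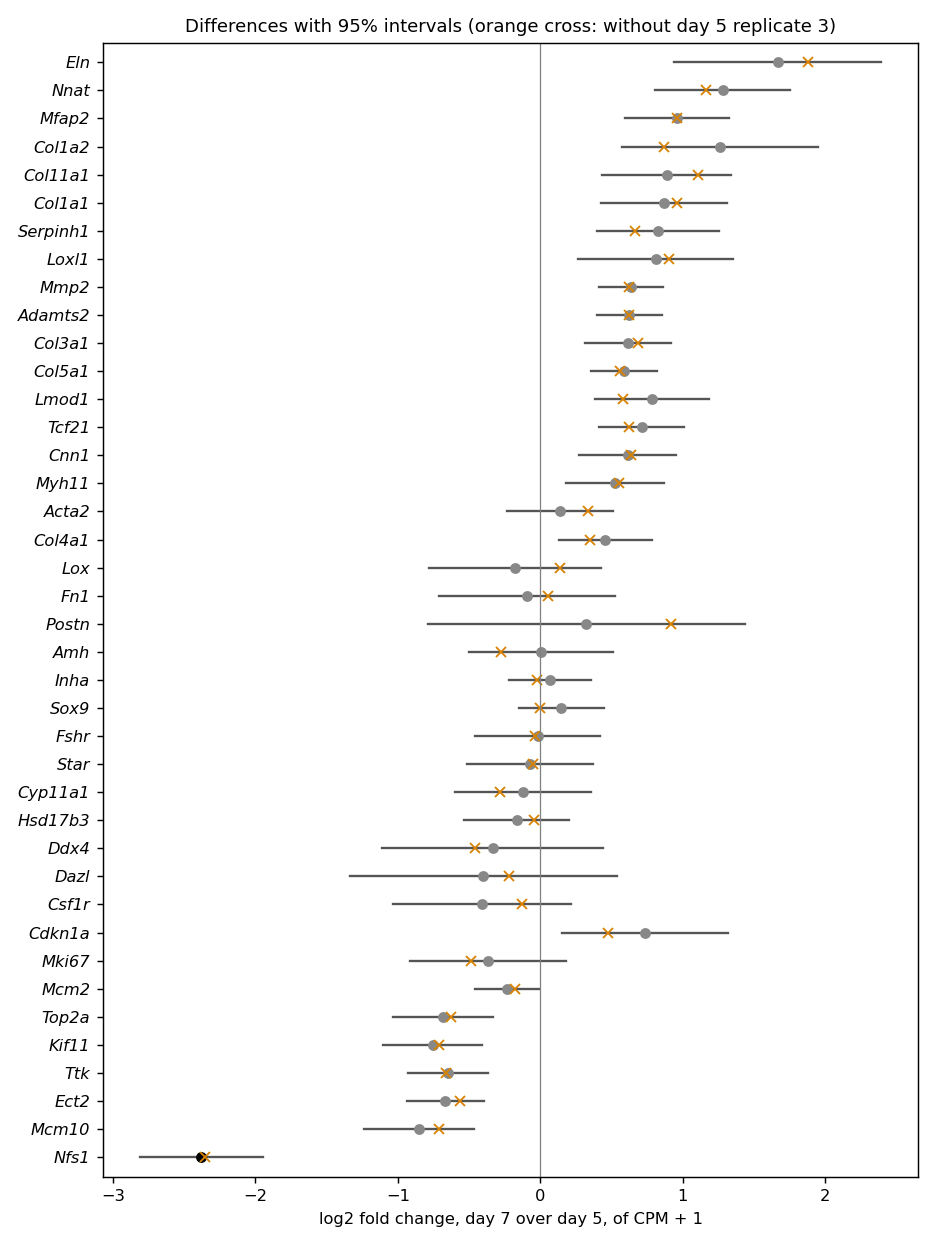
Log2 fold change of day 7 over day 5 on the log2(CPM + 1) scale for named genes, with its 95% interval (bar) and its value without day 5 replicate 3 (orange cross). The black point is Nfs1, which passed limma's adjusted test, and grey points did not pass. Intervals of Lox, Fn1, Postn, Acta2, Mki67 and the Sertoli, Leydig, germ and macrophage genes crossed 0, those of the other division genes lay below 0 and those of the other matrix and myoid genes above it.

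Signalling lists shifted slightly, and partly with day 5 replicate 3. At an unadjusted p under 0.05 lay 4.22% of all genes on the higher side and 6.17% on the lower. Of 11 Notch genes 4 did so on the higher side and 1 on the lower. The Notch list had a median of 0.20, or 0.08 without day 5 replicate 3. The Notch target Heyl had 110.2, 117 and 155 CPM at day 7, against 86.0, 77.0 and 91.2 CPM at day 5 (0.57 ± 0.15), the receptor Notch3 had 0.49 ± 0.17 and the target Hes1 0.46 ± 0.16. Of 10 hedgehog genes, the pathway by which Sertoli cells signal to the interstitium, 2 had an unadjusted p under 0.05 on the higher side. They were the target and effector Gli1 (37.3, 45.0 and 35.4 CPM at day 7, against 30.0, 28.0 and 20.8 CPM at day 5, 0.57 ± 0.18) and Gli2 (0.49 ± 0.18). The hedgehog list had a median of 0.21, or 0.05 without day 5 replicate 3, in which its members lay by a median of -0.49 from the other day 5 libraries. Of 25 TGF-beta and BMP genes 5 had an unadjusted p under 0.05 on the higher side and 0 on the lower, with the latent TGF-beta binder Ltbp1 at 0.88 ± 0.36 and the BMP target Id2 at 0.74 ± 0.23. Of 19 Wnt genes 4 did on the higher side and 0 on the lower, with the receptor Fzd2 at 0.62 ± 0.14 and Dkk3 at 0.46 ± 0.13. The TGF-beta and BMP list had a median of 0.20, or 0.15 without day 5 replicate 3, and the Wnt list 0.13, or 0.07 without it. Negative differences were found in 10 of the 25 and 4 of the 19.

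Stress and metabolic lists had medians within 0.28 of 0. Over all genes, 4.22% had an unadjusted p under 0.05 on the higher side and 6.17% on the lower. Without day 5 replicate 3 these shares were 3.48% and 4.48%. Of 18 chaperones of the endoplasmic reticulum, 5 had an unadjusted p under 0.05 on the higher side and 0 on the lower (median 0.21, or 0.28 without day 5 replicate 3, when 9 did), with Calr at 0.33 ± 0.11 and Creld2 at 0.43 ± 0.14. Of 20 ATF4 targets 5 did on the higher side and 1 on the lower, including Trib3 at 0.85 ± 0.29 and Sesn2 at 0.47 ± 0.15. The heat shock list had a median of -0.07 over 14 genes, with Hsp90ab1 at -0.06 ± 0.11, and the immediate early list -0.08 over 18, with Fos at 10.9, 6.63 and 7.76 CPM at day 7, against 12.3, 8.63 and 11.5 CPM at day 5. Cholesterol synthesis had a median of -0.13 over 22 genes, or -0.05 without day 5 replicate 3, in which the list lay by a median of 0.43 above the other day 5 libraries. Its Hmgcs1 had 231, 233 and 236 CPM at day 7, against 257, 221 and 352 CPM at day 5. Of 14 lipid genes, 3 had an unadjusted p under 0.05 on the lower side (Me1, Lpl and the desaturase Scd, at -0.35 ± 0.14, -0.52 ± 0.18 and -0.66 ± 0.23), and without day 5 replicate 3, 1 did. Messenger RNA of the mitochondrial genome took 1.95, 1.87 and 2.28% of the library at day 7, against 3.26, 1.68 and 1.85% at day 5 (exact permutation test, two-sided, p = 1, with 0.1 the smallest p that 3 against 3 libraries allow).

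**Figure D4:**
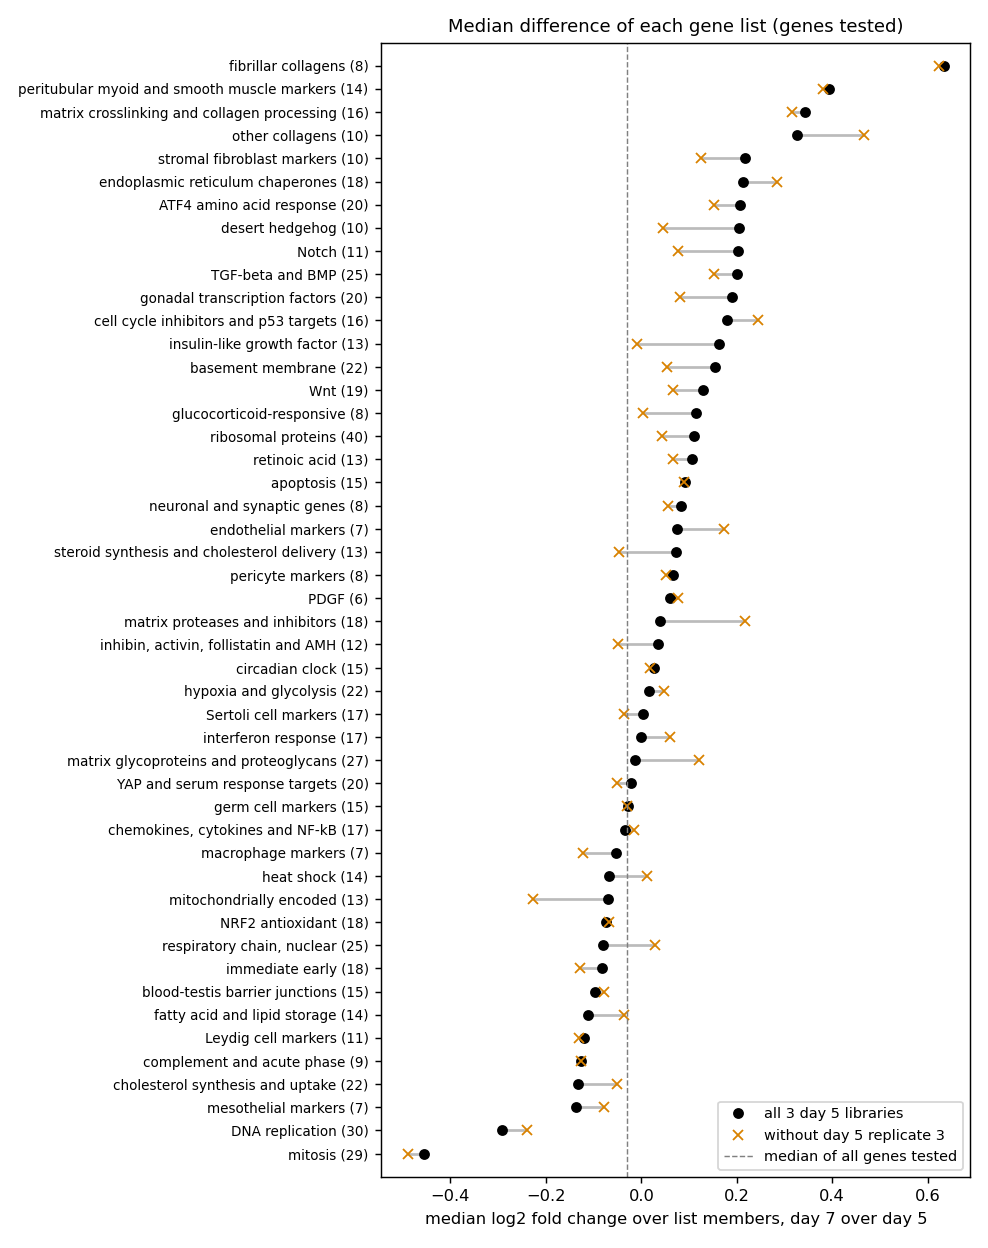
Median log2 fold change of day 7 over day 5 for each gene list of at least 5 tested genes, with all 3 day 5 libraries (black) and without day 5 replicate 3 (orange cross), and the number of genes tested in parentheses. Among these lists mitosis (-0.46) and DNA replication (-0.29) lay lowest and fibrillar collagens (0.63) highest with or without that library, while the hedgehog and Notch lists lay nearer to 0 without it.

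The same lists were also set beside day 3 of the culture. The comparisons of day 7 with day 3 and of day 5 with day 3 share libraries with each other and with that of day 7 with day 5, so their values are given side by side only. Day 5 over day 3 gave 4 genes called higher (0.0324%) and 1 lower by limma. For mitosis genes the median log2 fold change was -0.71 for day 7 over day 3 (17 of 29 called lower by limma, against 1.2% of all genes) and -0.18 for day 5 over day 3. For DNA replication the medians were -0.58 (11 of 30 called lower) and -0.28. For fibrillar collagens they were 0.75 (4 of 8 called higher, against 0.754% of all genes) and 0.03, and for myoid markers 0.37 (3 of 14 called higher) and 0.06. Eln stood at 287 CPM on average at day 3 and rose by day 7 (2.54 over day 3, limma adjusted p = 0.00714). Ect2 stood at 73.4 CPM on average at day 3 and fell by day 7 (-0.72 over day 3, limma adjusted p = 0.0216). Serpine2 and Mmp2 rose between day 3 and day 7 as well (2.50 and 1.04, each with limma adjusted p = 0.00115), and Rrm2 fell (-0.93, limma adjusted p = 0.00774). Sertoli cell markers had medians of -0.19 and -0.08.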

How the data were processed

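The authors deposited 1 table of counts scaled to each library's total (CPM) for 21425 genes. STAR and the build mRatBN7.2 are named in the submitters' processing notes; the counting tool and annotation are not given in the sources used here. The libraries do not keep strand, so overlapping genes cannot be told apart. All values were whole reads once divided by the CPM of 1 read (100% within 0.01 read), and 2.93 to 3.36% of the reads of the 6 libraries lay outside the listed genes. Genes with at least 1 CPM in at least 3 of the 6 libraries were kept, and log2(CPM + 1) was fitted with limma 3.58.1 in R 4.3.3 over the 9 culture libraries, with Benjamini-Hochberg adjustment. The pseudocount understates changes of low genes. On the recovered reads, edgeR 4.0.16 (quasi-likelihood test) called 1 gene, and DESeq2 1.42.0 was an alternative. Other alternatives were the libraries fitted, each library left out, a replicate block, array weights, the pseudocount, the filter and TMM scaling. The fit was tested on simulated data. Up to 15 lead genes per direction, up to 4 called and 2 uncalled members per list (highest mean CPM first) and a fixed panel were to be named; with 1 gene called, others were added after their values were seen. The members and lists were chosen with earlier results of these data known. One result of the basement membrane list is not reported here.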

Additional observations from a re-analysis of the deposited data

How the results depend on the processing

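The number of genes called between day 7 and day 5 was small and moved with the fit. It was 1 with all 9 culture libraries, 2 with the 6 libraries of the comparison alone, 9 with the fresh isolate added (6 higher, 3 lower), 0 with a filter of 5 CPM (limma, 1140 of 10588 genes at an unadjusted p under 0.05), 1 in edgeR and 128 in DESeq2. Array weights gave 1941, in an estimate of weights that did not converge, and the gene-by-gene method, chosen after seeing the data, gave 146. It was 1 to 2 with each library left out in turn. Nfs1 was called in these fits except that with 12 libraries and that with the 5 CPM filter, which removed low genes. The cause of the other shifts was not tested.

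The replicate numbers were not taken as pairs: deviations of same-numbered libraries correlated at -0.0893, -0.0978 and 0.365 across genes, and only replicate 3 correlated best with its own number. The block followed these replicate numbers. Some day 3 libraries carry another number in their library name than the day 5 and day 7 libraries of the same replicate number. The block of 9 libraries thus joined unlike names. With a replicate block the count was 2 in the 9 libraries and 20 in the 6 libraries, and the mitosis count was 24 and 22. Eln passed under the block in both (limma adjusted p = 0.0484 in 9 libraries and 2.3e-05 in 6), and Col1a1, Col1a2, Col11a1, Col8a2, Mfap2, Adamtsl2, Loxl1, Serpine2, Nnat, Npdc1, Gstm5 and Gspt1 passed in 6 libraries.

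With each library left out, the number of members at an unadjusted p under 0.05 was 15 to 26 for mitosis, 5 to 14 for DNA replication, 4 to 9 for crosslinking and 5 to 8 for myoid markers. Over 112 named genes and 21 alternatives, 2120 of 2347 values kept their direction and side of the threshold, 184 newly passed, 1 no longer passed and 42 changed sign. In the fit of 9 libraries only Nfs1 passed, so for every other gene keeping its side meant not passing. Where a fit changed only the day 3 or fresh libraries, the block or the filter, the fold change was identical. Its sign was then fixed in advance. The sign changed with a library left out for Fn1 (-0.35 to 0.054), Postn (-0.17 to 0.92), Lox (-0.44 to 0.14), Actg2 (-0.11 to 0.20), Amh (-0.28 to 0.20), Sox9 (-0.0015 to 0.23), Fshr (-0.13 to 0.16), Inha (-0.024 to 0.18), Cyp11a1 (-0.28 to 0.059), Gata4 (-0.10 to 0.26), Clu (-0.033 to 0.041), Nr5a1 (-0.021 to 0.32), Etv5 (-0.048 to 0.18) and Krt8 (-0.27 to 0.070), none of which passed in the fit of 9 libraries. With array weights it was -0.19 for Amh, 0.10 for Fshr, -0.032 for Inha, 0.0093 for Star and -0.053 for Gata4. With gene-by-gene weights it was -0.17 for Amh, 0.083 for Fshr, -0.0089 for Inha and -0.039 for Gata4. In edgeR it was -0.0045 for Amh, 0.034 for Fshr and 0.022 for Clu. In DESeq2 it was -0.0018 for Amh, 0.037 for Fshr and 0.025 for Clu. With TMM scaling it was 0.010 for Fshr and 0.023 for Clu. With 3 libraries a group of 17.3 to 24.8 M reads, differences under the intervals given were not detectable, and larger ones could fail the adjusted test.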

Other observations

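Some genes outside the matrix and division lists also lay apart between the days, none past limma's adjusted test. Nnat, an imprinted gene for a small membrane protein, had 271, 259 and 319.9 CPM at day 7, against 138, 114 and 98.3 CPM at day 5 (1.28 ± 0.22). Npdc1, a neural proliferation gene, had 109, 129 and 169 CPM at day 7, against 76.5, 74.3 and 66.6 CPM at day 5 (0.88 ± 0.15), and the opioid-related peptide gene Pnoc had 131, 102 and 126 CPM at day 7, against 71.3, 75.4 and 52.7 CPM at day 5 (0.85 ± 0.17). All 3 lay higher at day 7 without overlap. Acsl6, an acyl-CoA synthetase, lay lower without overlap, with 13.9, 11.1 and 12.4 CPM at day 7, against 21.7, 20.9 and 26.8 CPM at day 5 (-0.84 ± 0.16). Foxl2, the transcription factor of ovarian granulosa cells, had 40.6, 31.5 and 33.1 CPM at day 7, against 19.2, 25.01 and 5.50 CPM at day 5 (1.25 ± 0.40, or 0.65 without day 5 replicate 3, its lowest library). The chemokine Cx3cl1 had 0.62 ± 0.14, the lactate transporter Slc16a3 1.21 ± 0.30 and the pericyte regulator Rgs5 -0.85 ± 0.28. The list of 17 chemokine, cytokine and NF-kB genes had 7 positive and 10 negative differences and a median of -0.03. The hypoxia and glycolysis list of 22 genes had 11 of each sign and a median of 0.02. The pericyte list of 8 genes was split, with 4 positive and 4 negative differences and a median of 0.07. It had 1 member at an unadjusted p under 0.05 on each side (4.22% of all genes higher and 6.17% lower). Notch3, also in that list, lay higher.

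A pair of genes varied between libraries of 1 group as Nfs1 did in the fresh isolate. Gstm5, a glutathione transferase with close family members that may share its reads, had 19.5, 2.12 and 1.37 CPM at day 7, against 70.2, 60.5 and 92.7 CPM at day 5 (-3.80 ± 0.62, limma adjusted p = 0.199). It had 1.16 to 2.15 CPM at day 3 and 5.26, 88.2 and 137.8 CPM in the fresh isolate. Gspt1, a translation termination factor, had 13.7, 30.2 and 7.97 CPM at day 7, against 88.8, 51.4 and 35.7 CPM at day 5 (-1.80 ± 0.54), and 196.5 to 249.2 CPM in the 12 libraries of the hormone experiment.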
